A study of Oryza sativa with 4 samples.

Results

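The block is a run of consecutively numbered rice gene identifiers, BGIOSGA036041 to BGIOSGA037534, within which transcript differences between the chilling-tolerant substitution line DC90 and its chilling-sensitive parent 9311 gather. Members were the identifiers of this number range with at least 1 FPKM (fragments per kilobase of gene length per 1e6 library reads) in any of the 4 deposited libraries. The range holds 1494 identifiers, of which 872 were members. They made up 3.60% of the 24192 BGIOSGA identifiers that reached the same level anywhere in the numbering. Of the 622 identifiers left out, 375 were listed at 0 in every library. The share of identifiers expressed was 58.4% inside the range and 59.4% outside it. The range was chosen because line differences gather there, so the line ratios below are given as a description, with no test.

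Both lines were sampled as whole seedlings at the 3-leaf stage, without chilling (0 h) or chilled for 36 h. DC90 is labelled a chilling tolerance chromosome substitution line, and 9311, also written YD6, is its recurrent parent; the donor of the substituted chromosome segments is not given in the sources used here. Each of the 4 groups (DC90 at 0 h, DC90 at 36 h, 9311 at 0 h, 9311 at 36 h) is a single library from RNA pooled over 3 replicates. No spread between plants can therefore be measured, no p-value was computed, and "higher" and "lower" refer to these 4 libraries. Seedlings kept unchilled for 36 h are not among them, so chilling, age and time of day cannot be told apart. In whole seedlings, fewer cells of a type and less RNA per cell cannot be told apart either.

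A chromosome substitution line carries segments of a donor genome in the background of a recurrent parent, and in the rest of the genome the line and its parent are expected to share their alleles. Within a donor segment, genes can differ in promoter and coding sequence, in copy number or in being present at all, and neighbouring genes can differ in opposite directions. Such lines are used in rice to place traits such as seedling chilling tolerance on segments of a chromosome. BGIOSGA is the prefix of gene models of indica rice in Ensembl Plants. The sources used here pair none of the 872 members with a gene name or a position, so they are described by identifier, and the numbers are an order of names, not chromosome coordinates. Sequences of the members were not analysed here.

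Library totals recovered from the steps of the FPKM values were 10580163 to 11800685 reads. The median member had 161.5 reads in its deepest library, against 213 for the other expressed BGIOSGA identifiers, and 9.86% of members stayed under 20 reads in all 4 libraries, against 8.98%. A member was called different between 2 libraries when log2((FPKM + 1)/(FPKM + 1)) was at least 1 in size and FPKM was at least 1 in either library. Adding 1 to each FPKM understates the difference of weakly expressed genes. Folds quoted with an interval have nothing added, and the interval is an exact 95% Clopper-Pearson interval on recovered reads, which covers counting error only. A member with no read had none assigned to its identifier, which need not mean that no transcript was present. Whether reads of alleles unlike the gene model went uncounted was not tested.

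Before chilling, 51 members were higher and 66 lower in DC90 than in 9311, together 14.2% of the 825 measured. Among the other BGIOSGA identifiers 3.06% were called (1.42% higher, 1.64% lower), and among all of them, members included, 3.46%. After 36 h of chilling 48 members were higher and 84 lower in DC90, or 16.3% of 811, where the other identifiers gave 5.03% (1.67% higher, 3.36% lower) and all together 5.44%. At both times and in the same direction, 30 members were higher and 42 lower in DC90, which is 8.26% of the 872. The other identifiers gave 157 of 23320, or 0.673% (0.287% higher, 0.386% lower), and all together 0.947%. These shares follow in part from how the range was chosen and support nothing beyond the description. Differences above 4-fold were found in 19 higher and 25 lower members at 0 h, where the other identifiers gave 0.190% and 0.226%, and in 21 and 30 at 36 h, where they gave 0.216% and 0.427%.

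**Figure D1:**
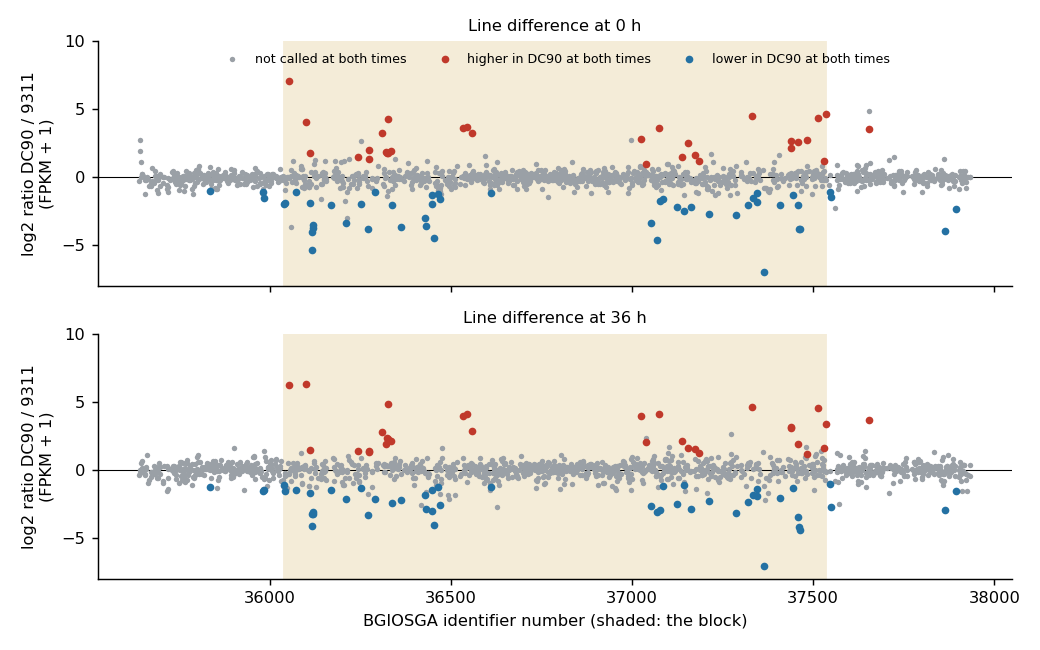
Log2 ratio of DC90 over 9311 on the FPKM + 1 scale (y axis) for expressed BGIOSGA identifiers in and around the block, in order of number (x axis), at 0 h (top) and 36 h (bottom), with the block shaded. Each point is 1 identifier in 1 pair of pooled libraries; the 30 red and 42 blue points inside the shading lie in its left and right parts, and the middle is nearly empty of them.

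The line differences did not fill the block evenly. The 872 members were divided in order of number into 18 bins, 17 of them with 50 members and the last with 22. The fullest bins were numbers 36226 to 36336, with 12 members called at both times, and 36041 to 36120, with 11. Outside the block, the fullest of 467 bins held 8 and 382 bins held none. The outside bins include other number ranges in which line differences gather, described below. The bin with 8, numbers 10255 to 10348, lies in one of them. In the middle of the block, 5 neighbouring bins with 250 members, from number 36610 to 36961, together held 1, BGIOSGA036610. In that interval 3.39% of measured members were called at 0 h and 5.98% at 36 h, close to the 3.06% and 5.03% outside the block. The other 622 members held 71 of the 72, or 11.4%, and 18.5% of those measured were called at 0 h. The edges of this interval were set after the values were seen.

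**Figure D2:**
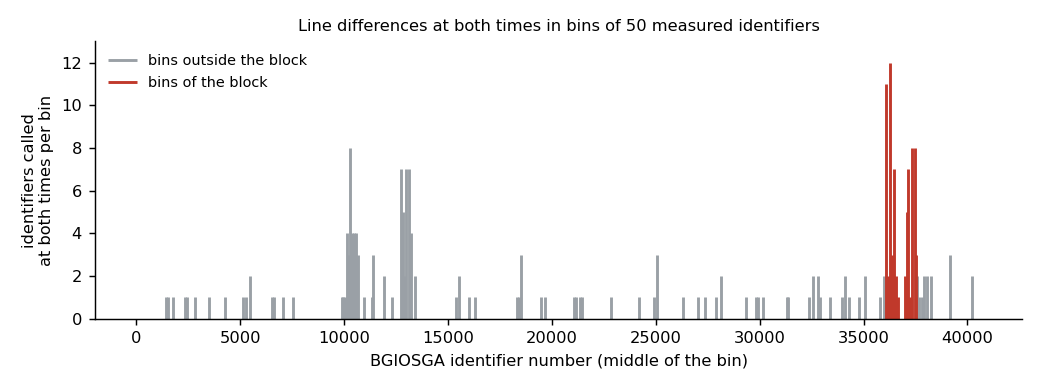
Number of identifiers called in the same direction between lines at both times (y axis) in bins of 50 expressed BGIOSGA identifiers, placed at the middle of each bin's number range (x axis). The 18 bins of the block, the last with 22 identifiers, are red and reach 12; the 467 bins outside it are grey and reach 8.

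The ends of the block were as follows. Its first members, BGIOSGA036041 and BGIOSGA036042, were lower in DC90, the second at 22.7 and 10.4 FPKM in DC90 (0 h, then 36 h) and 85.1 and 31.7 in 9311. The nearest expressed identifiers before it, BGIOSGA036038 and BGIOSGA036039, had log2 ratios of 0.11 and 0 at 0 h and -0.75 and -1.13 at 36 h. Its last members were BGIOSGA037533, at 104 and 113 FPKM in DC90 and 110.1 and 118 in 9311, and BGIOSGA037534, described below. Beyond it, BGIOSGA037535 had log2 ratios of -0.18 and -0.12 and BGIOSGA037544 of -0.58 and -0.97. The 100 expressed identifiers before the block held 2 called at both times and the 100 after it held 3. Over the 500 expressed identifiers numbered above the block, 15 were called at both times, or 3.00%. At the FPKM minimum, BGIOSGA037220 with a highest value of 1.003 and BGIOSGA037102 with 1.02 were just inside, and BGIOSGA036983 with 0.986 and BGIOSGA036973 with 0.984 just outside.

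Of the 30 members higher in DC90 at both times, 12 had no read in either 9311 library, 9 had reads there but stayed under 1 FPKM, and 9 reached 1 FPKM or more in 9311. Their mean log2 ratio over the 2 times ranged from 1.24 to 6.66. BGIOSGA036053 had the highest ratio, at 134 FPKM (514 reads) in DC90 at 0 h and 74.9 (259 reads) at 36 h, and was listed at 0 in both 9311 libraries. With 3 reads set in place of 0 in a 9311 library, it was at least 173-fold higher in DC90 at 0 h and at least 89.0-fold higher at 36 h. Here and below, such a bound rests on the 3 reads alone and leaves out counting error in the library with reads. The exact intervals of this member begin lower, at 139.9 and 71.8. The lines thus did not overlap for this member, and its level in DC90 was the lower one after chilling.

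In all, 8 members had no read in 9311 while both DC90 libraries reached 5 FPKM, or 0.917% of 872, where the other identifiers gave 0.0429%. BGIOSGA037332 stood at 22.1 and 23.6 FPKM in DC90 at 0 h and 36 h, at least 124-fold and 123-fold above 9311 when 9311 is set at 3 reads. BGIOSGA036327 stood at 18.2 and 27.4, at least 63.5-fold and 88.3-fold above. BGIOSGA036100 stood at 16.1 and 79.1, at least 10.1-fold and 45.7-fold above. Both DC90 libraries of these 3 were above both 9311 libraries, and BGIOSGA036100 was the one whose DC90 level differed most between times. BGIOSGA037534 was at 23.9 and 9.20 FPKM in DC90 and BGIOSGA037075 at 11.6 and 16.5. The 2 shortest, BGIOSGA037025 (126 bases) and BGIOSGA036310 (141 bases), rested on 9 to 19 reads per DC90 library, so their bounds were low, from 3.02-fold to 6.53-fold.

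Other members high in DC90 had a trace of reads in 9311. BGIOSGA036545 was at 13.3 and 18.6 FPKM in DC90 and at 0.0712 (1 read) and 0.154 (2 reads) in 9311. Its ratio of DC90 over 9311 was 187 at 0 h (interval 33.2 to 7443) and 121 at 36 h (33.1 to 1006). BGIOSGA037514 was at 22.6 and 36.5 in DC90 and 0.166 and 0.628 in 9311, with ratios of 137 (37.4 to 1133) and 58.1 (28.0 to 146). BGIOSGA036533 was at 16.0 and 15.8 in DC90 and 0.353 and 0.0956 in 9311, with ratios of 45.3 (17.4 to 168) and 165 (29.2 to 6552). For these 3 members the 9311 reads numbered 1 to 7 per library, and the ratios at the 2 times had overlapping intervals. BGIOSGA036558 differed in kind, since it was well detected in both lines, at 82.2 and 70.7 FPKM in DC90 and 7.73 and 8.94 in 9311. It was 10.6-fold higher in DC90 at 0 h (7.26 to 16.1) and 7.91-fold at 36 h (5.43 to 11.9).

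Of the 42 members lower in DC90 at both times, 15 had no read in either DC90 library, 13 had reads but stayed under 1 FPKM there, and 14 reached 1 FPKM or more. The mean log2 ratio ranged from -1.18 to -7.03. BGIOSGA037365 had the lowest, with 0.181 FPKM (1 read) and 0.401 (2 reads) in DC90 against 149 (827 reads) and 189 (968 reads) in 9311. The ratio of 9311 over DC90 was 821 at 0 h (147 to 32451) and 470 at 36 h (129.7 to 3884). Its reads were thus many in the parent at both times and close to the detection limit in the substitution line.

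Conversely, 6 members had no read in DC90 while both 9311 libraries reached 5 FPKM, or 0.688%, against 0.0343% of the other identifiers. BGIOSGA036118 stood at 38.5 and 16.8 FPKM in 9311, so DC90, set at 3 reads, was at least 36.1-fold and 14.2-fold lower. BGIOSGA036455 stood at 21.4 and 15.4 in 9311, at least 24.8-fold and 16.2-fold above DC90. BGIOSGA037463 stood at 13.0 and 20.6 and its neighbour in number, BGIOSGA037462, at 12.8 and 17.5. In these 2 neighbours the 9311 level was the higher one at 36 h, whereas in BGIOSGA036118 and BGIOSGA036455 it was the higher one at 0 h. BGIOSGA036432 was at 11.0 and 6.16 FPKM in 9311, and BGIOSGA037288, with 129 bases, at 5.91 and 7.82 from 9 and 11 reads. Counted by reads, with none in DC90 and at least 20 in 9311 over both times, there were 21 members, or 2.41%, against 0.120% elsewhere; the reverse held for 15, or 1.72%, against 0.107%.

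Further members were low but detected in DC90. BGIOSGA037068 was at 0 and 0.149 FPKM in DC90 and 23.8 and 8.70 in 9311. BGIOSGA036272 was at 0.219 and 0 in DC90 and 16.1 and 8.94 in 9311. BGIOSGA037052, the longest of those named at 2970 bases, was at 0.0863 and 0.286 in DC90 and 9.93 and 6.89 in 9311, with a ratio of 9311 over DC90 of 115 at 0 h (39.1 to 561) and 24.0 at 36 h (12.4 to 53.3). Each of these 3 had the lower 9311 level after chilling, and both 9311 libraries lay above both DC90 libraries.

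**Figure D3:**
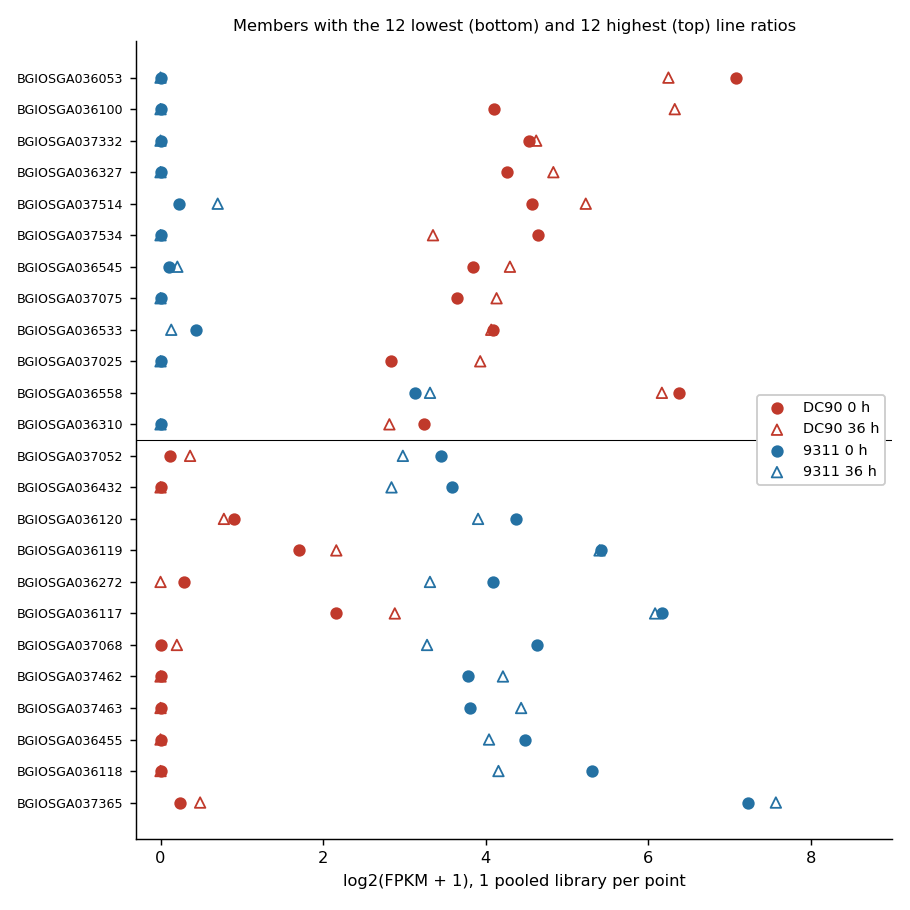
Level of the 24 members with the highest (top 12 rows) and lowest (bottom 12 rows) mean line ratio, as log2(FPKM + 1) on the x axis, with red for DC90, blue for 9311, filled circles for 0 h and open triangles for 36 h. Each symbol is 1 pooled library without an error bar; red and blue are separated in every row, and circle and triangle of a colour lie closer to each other than to the other colour.

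Called members often stood next to each other. Taking expressed identifiers in order, 31 of the 72 members called at both times were in 13 runs of neighbours, of 2 to 4 identifiers each. In 9 of the runs the members shared their direction and in 4 the directions were mixed. Outside the block 29 of the 157 were in runs, 13 in number. Calls were denser in the block, which was chosen for them, at 8.26% of members against 0.673% elsewhere. Runs are more likely where calls are dense, so the runs are a description only and were not compared. The longest run was BGIOSGA036117 to BGIOSGA036120, all lower in DC90. BGIOSGA036117 was at 3.45 and 6.36 FPKM in DC90 and 71.0 and 66.7 in 9311, a ratio of 9311 over DC90 of 20.6 (11.6 to 40.4) at 0 h and 10.5 (6.62 to 17.5) at 36 h. BGIOSGA036119 was at 2.24 and 3.47 in DC90 and 41.8 and 41.2 in 9311, with ratios of 18.7 (9.92 to 39.5) and 11.9 (6.87 to 22.1). BGIOSGA036120 was at 0.863 and 0.716 in DC90 and 19.7 and 14.0 in 9311, with ratios of 22.8 (12.9 to 44.7) and 19.5 (10.1 to 43.4). Together with BGIOSGA036118, at 0 in DC90, the 4 neighbours differed in level in 9311. By ratio, or by bound for BGIOSGA036118, each was more than 10-fold lower in DC90 at both times. The intervals of BGIOSGA036117 at 36 h and of BGIOSGA036119 at both times begin below 10.

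Mixed directions occurred side by side as well. The neighbours BGIOSGA037332 and BGIOSGA037333 went opposite ways: the first was at 0 in 9311, and the second was at 19.3 and 22.3 FPKM in DC90 against 55.8 and 83.4 in 9311, 2.90-fold (2.59 to 3.24) and 3.73-fold (3.36 to 4.16) higher in 9311. BGIOSGA036322 and BGIOSGA036323 were both higher in DC90, at 20.8 and 21.9 FPKM against 4.91 and 5.13 for the first and at 36.2 and 33.3 against 9.92 and 5.87 for the second. The highest level among the 72 belonged to BGIOSGA036243, at 256 and 72.7 FPKM in DC90 and 92.1 and 26.4 in 9311. It was 2.78-fold higher in DC90 at 0 h (2.55 to 3.04) and 2.75-fold at 36 h (2.33 to 3.27), and lower after chilling in both lines. BGIOSGA037333, BGIOSGA036322, BGIOSGA036323 and BGIOSGA036243 were chosen after their values were seen.

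The members called at both times were short. Their median recovered length was 547.5 bases, against 987 for the other 800 members, and 25.0% of them were under 300 bases, against 7.50%. Elsewhere in the numbering the 157 identifiers called at both times had a median of 534 bases, against 1032 for those not called, so short length was not particular to the block. Their median highest FPKM was 15.1, close to the 15.0 of the other members. Shorter genes carry fewer reads at the same FPKM, with a median of 79 reads in the deepest library against 169.5, and the part of this in the calls was not tested. With at least 20 reads required in the higher library, 55 members were called at both times, or 6.31% of 872. Among the other identifiers 105 of 23320 were called at this setting, or 0.450%.

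A line difference seen before chilling was seen again afterwards more often inside the block than outside it. Of the 51 members higher in DC90 at 0 h, 30 were also higher at 36 h, which is 58.8% of them and 62.5% of the 48 called higher at 36 h. Of the 66 lower at 0 h, 42 were also lower at 36 h, 63.6% of them and 50% of the 84. For the other identifiers the corresponding shares of the 0 h lists were 21.4% and 24.8%. Such recurrence was not particular to the block. In numbers 12710 to 13206, where line differences also gather, 13 of 18 higher and 18 of 27 lower at 0 h were so again at 36 h. In numbers 10224 to 10354, 5 of 6 and 7 of 10 were. In opposite directions at the 2 times, 4 of the 872 members were called, and 32 of the 23320 other identifiers, or 0.137%. The 4 members, some of them with few reads, are described at the end. Across the 451 members that reached 5 FPKM in every library, the ratios between lines at 0 h and 36 h, which share no library, were correlated with Pearson's r 0.41 and Spearman's rho 0.23, against 0.02 and -0.04 across 13734 other identifiers. Without the members called at both times the 446 that remained gave 0.21 and 0.21. In numbers 12710 to 13206 the correlations were higher, at 0.65 and 0.32 across 142 identifiers. Without those called at both times, the 137 that remained there gave 0.32 and 0.24. These are correlations across genes, which are not independent, and the block was chosen on these ratios.

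**Figure D4:**
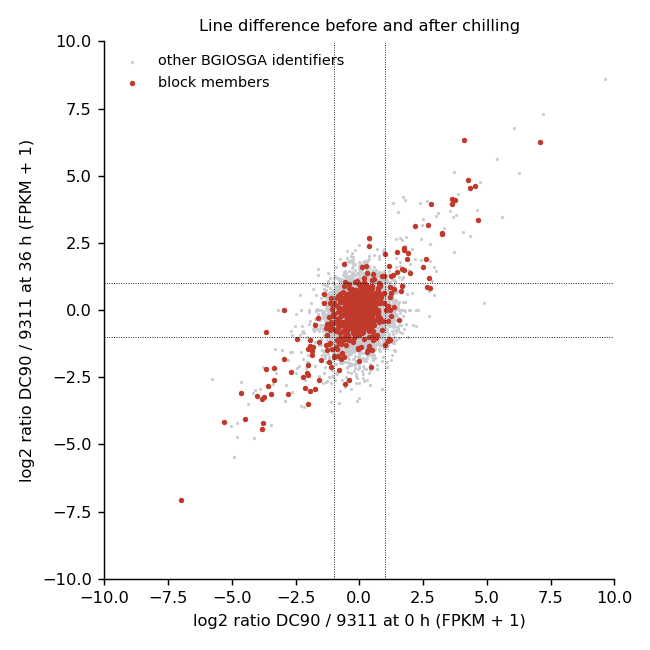
Log2 ratio of DC90 over 9311 on the FPKM + 1 scale at 0 h (x axis) and 36 h (y axis), with block members in red, other expressed BGIOSGA identifiers in grey and dotted lines at 1 and -1. The 30 members in the upper right and the 42 in the lower left corner are those called at both times.

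The other blocks in which line differences gather showed a similar makeup. Numbers 12710 to 13206 held 269 expressed identifiers, of which 13 were higher and 18 lower in DC90 at both times, or 11.5%. Numbers 10224 to 10354 held 71, of which 5 were higher and 7 lower, or 16.9%. The share that was higher in DC90 among those called was 41.7%, 41.9% and 41.7% in the 3 blocks, and 42.7% outside the present block. The present block had the lowest share called and the most members. Identifiers of the other blocks are counted among the other identifiers wherever shares of those are given.

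After chilling, members were called about as often as other identifiers. In DC90, 99 members were higher and 117 lower at 36 h than at 0 h, 26.8% of the 805 measured, where 29.9% of the other identifiers were called (14.5% higher, 15.3% lower) and 29.8% of all together. In 9311, 114 were higher and 151 lower, 32.2% of 822, where the other identifiers gave 34.4% (16.2% higher, 18.2% lower) and all together 34.3%. Both shares of the block are near the background and are no result about its members. In bins of 50 members the share called ranged from 17.0% to 40.4% in DC90 and from 20% to 43.2% in 9311. In the middle interval poor in line differences it was 30.4% in DC90 and 31.0% in 9311, and in the rest of the block 25.3% and 32.8%. After rescaling to equal FPKM sums, higher members made up 54.4% of those called in DC90 in place of 45.8%, so that which direction was more frequent there depended on the scaling.

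Of the 872 members, 326 were called after chilling in at least 1 line, and 152 of these, or 46.6%, were called in the same direction in both. A further 61 were called in DC90 alone, 110 in 9311 alone and 3 in opposite directions, and 546 in neither line. Among the other identifiers called in at least 1 line, 54.7% were called in the same direction in both, and 11 of 23320, or 0.0472%, in opposite directions. Of the members higher after chilling, 66 were so in both lines, which is 66.7% of the DC90 list and 57.9% of the 9311 list. Of the members lower after chilling, 86 were so in both lines, 73.5% and 57.0% of the 2 lists. Over all members these make up 7.57% and 9.86%, where the other identifiers gave 10.5% and 11.6%. Across the 451 members that reached 5 FPKM in every library, the responses of the lines had a Pearson's r of 0.86 (Spearman's rho 0.86), against 0.89 and 0.88 across the other identifiers. The SD of the log2 response was 0.84 in DC90 and 0.93 in 9311 for these members, and 0.94 and 1.03 for the others.

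The members named next had the highest mean response over the 2 lines among those with at least 10 FPKM in any library, a ranking that places a member silent in 1 line low. BGIOSGA036201 went from 4.61 to 241 FPKM in DC90, 52.3-fold higher (39.2 to 71.4), and from 5.75 to 442 in 9311, 76.9-fold higher (59.5 to 101.1). BGIOSGA036921 went from 0.285 to 23.2 in DC90 and from 0.282 to 24.4 in 9311, with ratios of 81.3 (31.4 to 300.5) and 86.3 (33.4 to 319). BGIOSGA036616 went from 1.09 to 21.6 and from 0.435 to 37.4, and BGIOSGA036877 from 3.70 to 39.4 and from 2.54 to 50.1. All 4 were higher at 36 h in both lines. BGIOSGA036495 was at 0.356 (1 read) and then 24.8 FPKM in DC90, and at 0 and then 111 in 9311, where it was at least 105-fold higher after chilling if 0 h is set at 3 reads. At 36 h it was 4.48-fold higher in 9311 than in DC90 (3.40 to 5.98).

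The lowest mean responses by the same rule included a neighbouring pair. BGIOSGA037061 went from 101 to 3.15 FPKM in DC90, 32.0-fold lower (19.2 to 57.6), and from 150.1 to 1.02 in 9311, 147-fold lower (62.8 to 455). BGIOSGA037062 went from 71.6 to 1.16 in DC90, 61.7-fold lower (29.7 to 154), and from 80.4 to 0.483 in 9311, 167-fold lower (56.7 to 810.3). Both were at 3.15 FPKM or less after chilling in both lines. BGIOSGA036075 went from 259 to 21.5 and from 258 to 14.5, 12.03-fold (9.76 to 15.0) and 17.8-fold (13.9 to 23.1) lower. BGIOSGA036573 went from 40.1 to 2.23 in DC90 and from 39.7 to 2.33 in 9311, and BGIOSGA037128 from 25.2 to 3.09 and from 34.9 to 1.76. The 2 lines were close to each other at 0 h in all 5, within 1.5-fold.

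**Figure D5:**
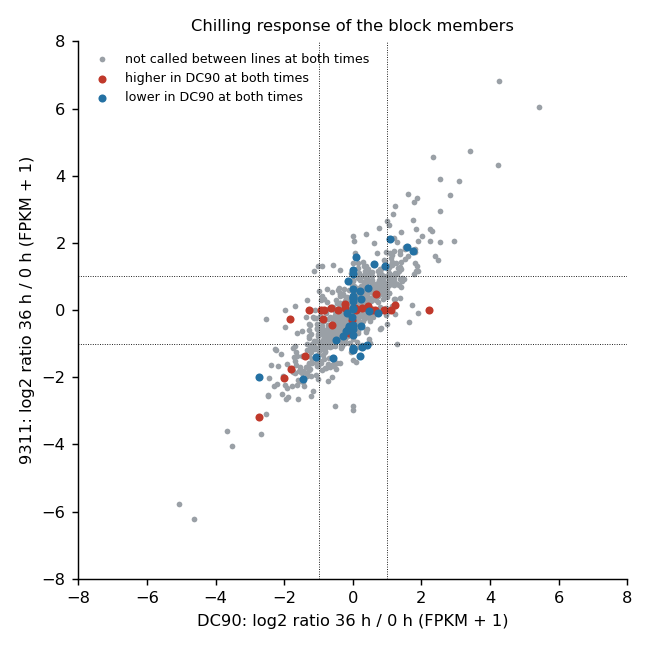
Log2 ratio of 36 h over 0 h on the FPKM + 1 scale in DC90 (x axis) and in 9311 (y axis) for the 872 members, with dotted lines at 1 and -1; red members were higher and blue members lower in DC90 at both times. Grey points follow the diagonal, and many red points lie on the horizontal and blue points on the vertical zero line, where the other line has few or no reads.

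The response of the members called between lines at both times was read first in the line with the higher level. Of the 30 members higher in DC90 at both times, 3 were higher and 6 lower after chilling in DC90, which is 30.0%, and 21 were not called. Of the 42 lower in DC90, 8 were higher and 10 lower after chilling in 9311, which is 42.9%, and 24 were not called. Over all other identifiers 29.9% were called in DC90 and 34.4% in 9311. Over those called between lines at both times elsewhere, with both directions pooled, the shares were 37.7% and 46.9%. Pooled in the same way, the 72 members of the block gave 34.1% of 44 measured in DC90 and 43.1% of 51 in 9311. In the line with the lower level few of these members were measured: 4 of 9 were called in 9311, all lower after chilling, and 6 of 14 in DC90, 3 in each direction. In the line with the higher level, the median log2 response was -0.07 for the 30 members (DC90) and -0.09 for the 42 (9311). Over all members it was -0.01 in DC90 and -0.06 in 9311. BGIOSGA036100 was 4.91-fold higher at 36 h in DC90 (3.28 to 7.56) and had no read in 9311. BGIOSGA037459 was 3.25-fold higher in 9311 (2.08 to 5.22), from 7.40 to 24.0 FPKM, and was at 1.11 and 1.22 in DC90, from 4 reads each.

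Some members differed between lines at both times and responded in both. BGIOSGA037319 went from 2.01 to 7.98 FPKM in DC90 and from 11.4 to 44.8 in 9311. Its response was 3.98-fold (2.75 to 5.89) and 3.93-fold (3.37 to 4.60), and it was 5.69-fold (3.995 to 8.30) and 5.62-fold (4.67 to 6.81) lower in DC90 at the 2 times. BGIOSGA037531 went from 46.1 to 6.14 in DC90 and from 19.8 to 1.30 in 9311, 7.50-fold (6.39 to 8.85) and 15.2-fold (10.9 to 21.8) lower after chilling. Its ratio of DC90 over 9311 was 2.32 at 0 h (2.11 to 2.56) and 4.71 at 36 h (3.28 to 6.91), so that its line ratio differed between times, whereas that of BGIOSGA037319 did not differ beyond counting error. BGIOSGA036362 did not share its response, at 3.57 and 5.14 FPKM in DC90 and 56.0 and 26.7 in 9311, so that the ratio of 9311 over DC90 was 15.7 (12.9 to 19.2) at 0 h and 5.20 (4.34 to 6.27) at 36 h. BGIOSGA037459, BGIOSGA037319, BGIOSGA037531 and BGIOSGA036362 were chosen after their values were seen.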

How the data were processed

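RNA of whole seedlings was pooled over 3 replicates per group and sequenced as 1 library per group, per the labels' protocols. The authors deposited FPKM values, made with HTSeq 0.6.1 per the submitters' processing notes; which aligner, build and annotation they used is not given in the sources used here. Each column was paired with its sample through the title. Library totals, lengths and reads were recovered from the value steps: the smallest length up to 30000 bases giving whole reads in all 4 libraries within 1e-07, found for 34043 of 34043 identifiers above 0. Where the true length has a factor in common with all reads, the recovered reads are too few (they sum to 97.6% to 97.7% of the totals) and the intervals too wide. Recovered lengths were multiples of 3 for 98.8% of BGIOSGA identifiers. PCR reads are not independent molecules. A 0 was set at 3 reads per library for a bound, which leaves out counting error in the other library. The steps were tested on simulated data. No identifier of the table was found in the reference gene table.

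The block, the call rule and the rule for named members were chosen with earlier results of these data known. Named were the 12 highest and 12 lowest members by mean line ratio among those called at both times, members at 0 in both libraries of a line with FPKM of at least 5 in both of the other, the 5 highest and 5 lowest by mean response with at least 10 FPKM, members called in opposite directions, and those at the edges. Alternatives were another pseudocount, low-value filters, scalings and a minimum of reads. Python 3.11.15, pandas 2.3.3, NumPy 2.4.6, SciPy 1.17.1 and matplotlib 3.10.9 were used.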

Additional observations from a re-analysis of the deposited data

Results flagged for a closer look

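Of the 872 members, 4 were called in opposite directions for the line difference at the 2 times and 3 for the chilling response in the 2 lines, with 2 members in both sets. Among the 23320 other identifiers there were 32, or 0.137%, and 11, or 0.0472%. None of these differences was tested, since each line has 1 library per time. BGIOSGA036834 was higher in DC90 at 0 h (log2 ratio 1.15) and lower at 36 h (-1.06), at 16.1 and 8.23 FPKM in DC90 and 6.69 and 18.2 in 9311, on 68 to 171 reads per library. BGIOSGA037315 was higher in DC90 at 0 h (1.13) and lower at 36 h (-1.15), at 141 and 23.3 FPKM in DC90 and 63.9 and 52.9 in 9311. BGIOSGA036205 had line ratios of 1.19 and -1.10 and responses of -1.14 in DC90 and 1.15 in 9311, on 2 to 10 reads. BGIOSGA036734 had line ratios of 1.02 and -1.31 and responses of -1.02 in DC90 and 1.31 in 9311, on at most 4 reads. BGIOSGA037274 had responses of 1.28 in DC90 and -1.001 in 9311, on at most 24 reads.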

How the results depend on the processing

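Of 63 counts and shares recomputed under other settings, 46 stayed within 1.5 times the reported count or, for a share, within its exact binomial interval. With 0.1 as the pseudocount and low values kept, all 1494 identifiers of the range were counted. Line differences then numbered 116 higher and 156 lower at 0 h, 129 and 168 at 36 h, and 58 and 89 at both times. The share with a line difference at this setting was 18.2% inside the block and 8.99% outside at 0 h, and 19.9% and 11.0% at 36 h. This is a smaller contrast than the 14.2% against 3.06% and 16.3% against 5.03% reported. Responses at the same setting numbered 177 higher and 211 lower in DC90, and 170 higher and 276 lower in 9311. They were near the background, at 26.0% inside the block and 28.3% outside in DC90, and 29.9% and 31.0% in 9311. With FPKM of at least 5, line differences numbered 33 and 39 at 0 h, 30 and 55 at 36 h, and 19 and 22 at both times. The shares called were then 11.8% inside the block and 2.50% outside at 0 h, and 14.6% and 4.30% at 36 h. At both times they were 4.70% and 0.352%. In the 2 bins fuller than every bin outside, 23.0% were called at both times, a share set by how the bins were picked. In these bins 28.0% responded in DC90 and 39.3% in 9311. All members gave 26.8% and 32.2%, and the other identifiers 29.9% and 34.4%. Over the 6 other settings, members called at both times made up 4.70% to 9.84%, and other identifiers 0.352% to 1.94%. Equal FPKM sums shifted the median response in DC90 by 0.10 (log2) over 14185 well-measured identifiers. Of 252 log2 ratios of named members recomputed, 4 moved beyond their counting interval, all with a pseudocount of 0.1. BGIOSGA037052 moved to -5.75 and -4.18 between lines, and BGIOSGA036921 to 5.92 in DC90 and 6.0005 in 9311 on chilling. A ratio to a library with no read has an interval without an upper end. BGIOSGA036053, at 7.08 and then 10.4 between lines at 0 h, thus did not count as moved. That 0 reversed was fixed in advance. A pseudocount keeps the sign, and the scalings shifted median ratios by about 0.10 or less, where each named ratio was at least 1 in size. No paired analysis was possible because each group has 1 library, and for the same reason no library could be left out.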
